A study of Mus musculus with 4 samples.

Results

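Small nucleolar RNAs (snoRNAs) were examined in RNA-seq libraries of mouse myeloid cells with and without Cre-mediated deletion at Pdcd1, the gene that encodes the inhibitory receptor PD-1. Among the 24706 genes listed, the genes were chosen by their deposited biotype alone, and all 229 of biotype snoRNA were kept. None of the genes listed was at 0 in every library. Shares of genes detected are therefore shares of genes with reads in at least 1 library. Each of the 2 groups held 2 libraries, the PD-1f/f group labelled wt (wt1 and wt2) and the PD-1f/f; LysM-Cre group labelled cko (cko1 and cko2). All mice of the figures carried LoxP sites around an exon of Pdcd1, whereas the methods call the controls wild-type. In the cko mice Cre recombinase was expressed from the lysozyme locus Lyz2, which is active in myeloid cells. The source was given as CD11b+ liver cells sorted at postnatal day 3 in the results and as fetal livers at postnatal day 2 in the methods, and the labels do not decide between them. No source states whether a library was 1 mouse or a pool, so that p-values measure the spread between these libraries only.

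snoRNAs are short nuclear RNAs that guide chemical modification of other RNAs, above all ribosomal RNA. C/D box snoRNAs associate with fibrillarin and direct ribose methylation, and H/ACA box snoRNAs associate with dyskerin and direct the conversion of uridine to pseudouridine. Most are cut out of introns of host genes after splicing and lack a poly(A) tail, and only a few, such as the U8 RNA Snord118, have promoters of their own.

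The genes were 65 to 246 bases long, with a median of 130 bases, and all 229 lay at positions identical to GENCODE M21 on GRCm38. By their position, 109 lay in an intron of a gene on the same strand (the host strand), 76 in an intron of a gene on the opposite strand, 37 outside other genes and 7 over an exon of another gene. The symbol or the deposited description gave a class for 159 of them, 36 C/D and 123 H/ACA, and gave none for the other 70. Only 32 of the 229 had a Snord or Snora symbol. The largest family was SNORA17 with 46 genes. Its other 45 genes were 69.7% to 86.4% identical to Snora17 itself.

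The sequences of the genes that the values below turn on are shown first, from GENCODE M21 on GRCm38 and in DNA letters, 5′ to 3′. Capitals mark box letters found on the RNA's own strand, for C/D snoRNAs a C box (ATGATG or GTGATG in the first 25 bases) and a D box (CTGA in the last 25 bases), for H/ACA snoRNAs an H box (ANANNA in the central 40 bases) and ACA in the last 8 bases. Gm24727, shown as the gene with the most reads, Snord7, a C/D gene among the leading genes, and Snord118, one of the genes called lower, read as follows. In Snord118 the C box letters lie outside the first 25 bases.
Gm24727 (chr8:33691801-33691944, plus strand): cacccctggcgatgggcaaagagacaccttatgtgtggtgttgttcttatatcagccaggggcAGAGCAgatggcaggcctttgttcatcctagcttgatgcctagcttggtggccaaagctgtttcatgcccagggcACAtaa
Snord7 (chr11:83294304-83294400, plus strand): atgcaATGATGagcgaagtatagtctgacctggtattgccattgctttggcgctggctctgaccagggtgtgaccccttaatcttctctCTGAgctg
Snord118 (chr11:69073427-69073561, plus strand): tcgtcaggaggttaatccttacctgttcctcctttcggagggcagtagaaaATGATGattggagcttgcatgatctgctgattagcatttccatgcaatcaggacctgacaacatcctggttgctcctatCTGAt

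The H/ACA genes shown are 4 called higher in cko, namely Gm25788 and Gm22154, a pair of SNORA55 copies in 1 host gene, Gm23722 and Gm26394. Snora17 is set beside Gm22267, the family member called lower. Neither Gm26394 nor Gm22267 held both H/ACA boxes as searched.
Gm25788 (chr4:123291344-123291474, plus strand): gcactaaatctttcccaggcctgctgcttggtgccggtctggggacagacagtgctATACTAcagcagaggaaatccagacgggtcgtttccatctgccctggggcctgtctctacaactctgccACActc
Gm22154 (chr4:123293152-123293282, plus strand): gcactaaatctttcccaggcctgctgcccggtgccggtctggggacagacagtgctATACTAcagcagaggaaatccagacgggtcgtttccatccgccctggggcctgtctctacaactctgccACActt
Gm23722 (chr1:39573746-39573875, minus strand): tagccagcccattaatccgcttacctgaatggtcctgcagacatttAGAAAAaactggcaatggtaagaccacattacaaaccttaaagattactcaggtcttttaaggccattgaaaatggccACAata
Gm26394 (chr11:98999508-98999622, plus strand): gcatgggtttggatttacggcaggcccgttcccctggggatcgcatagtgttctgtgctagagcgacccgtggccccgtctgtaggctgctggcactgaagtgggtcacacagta
Snora17 (chr2:26639190-26639321, minus strand): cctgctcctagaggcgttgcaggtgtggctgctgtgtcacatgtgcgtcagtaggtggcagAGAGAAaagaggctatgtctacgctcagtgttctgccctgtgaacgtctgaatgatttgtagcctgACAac
Gm22267 (chr6:24894670-24894800, minus strand): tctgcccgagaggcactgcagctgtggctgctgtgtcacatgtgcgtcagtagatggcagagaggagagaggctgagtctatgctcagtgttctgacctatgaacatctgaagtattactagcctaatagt

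Gm25788 and Gm22154 were 96.9% identical, and Gm25788 was 97.7% identical to another SNORA55 gene, Gm24620. Among all 229 genes, 29 had another listed snoRNA of at least 90% identity and 4 had an identical one, so that reads of such genes may have been split or left out in counting. Both C/D boxes were found in 30 of the 36 C/D genes and in 23.0% of all 1507 snoRNA genes of GENCODE M21. Both H/ACA boxes were found in 72 of the 123 H/ACA genes and in 39.6% of all 1507. Of the 70 genes without a class, 7 held the C/D boxes and 23 the H/ACA boxes. These matches describe the letters and assign no class.

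The 229 listed genes were a minority of the annotated snoRNA genes, of which 1278 had no row and were not analysed here. Position differed between the listed and the other genes. Of the 230 annotated snoRNA genes that overlap an exon of another gene 3.04% were listed, against 17.4% of the 1277 that do not. Among genes with a Snord or Snora symbol the shares were 6.94% of 72 with and 39.7% of 68 without an exon overlap. All 10 snoRNAs of Gas5 and all 8 of Snhg1, a pair of long noncoding host RNAs, overlap exons, and 0 were listed. Of the snoRNAs within ribosomal and translation genes, 1 of 4 in Rpl13a, 0 of 1 in Eef2 and 0 of 3 in Rack1 were listed. The Rpl13a member, Snord32a, held 1 read over all 4 libraries. None of the 17 Snord116 genes and neither Snord64, both imprinted loci, nor Snord13, the 4 Snord14 genes, Snord22 or the 2 Snora73 genes were listed. Of the snoRNAs with their own promoter or a part in ribosomal RNA cleavage that were looked for by symbol, only Snord118 had a row. Snord3a and Snord3b were looked for too, but 0 annotated snoRNA genes matched these symbols, so that they could not be found. Copies under other symbols were not covered by this search. By family name, 2 listed genes, neither tested, belonged to SNORD115, the name of an imprinted cluster. Hosts of listed intronic snoRNAs had a median level of 5.42 FPKM, and hosts of the others, where a host had a row, 0.0777 FPKM (FPKM relates reads to gene length and to the counted reads of a library).

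Library depth and composition bear on these short genes. The steps between FPKM values of single-exon genes correspond to single reads, which gave 22212407 and 18822630 counted reads in wt1 and wt2 and 18742154 and 17691505 in cko1 and cko2. Pdcd1 was measured at 28.5, 34.7, 17.1 and 21.4 FPKM in wt1, wt2, cko1 and cko2 (log2 difference −0.69, SE 0.19, adjusted p = 0.218, limma). Of the markers of the labelled cells, Ptprc (CD45) lay at 58.1 to 75.1 FPKM, whereas Itgam, which encodes CD11b, lay at 0.0094 to 0.1 FPKM in all 4 libraries. The 12 myeloid markers summed to 94031 and 117064 FPKM in wt and to 47821 and 53716 in cko, sums made up almost wholly of Lyz2, S100a8 and S100a9. Of the 11 tested, 4 were lower and 3 higher in cko without overlap, with a median log2 difference of 0.17. Lyz2, which carries the Cre, lay at 31306, 32147, 10422 and 8127 FPKM. Markers of red cell precursors summed to 2314 and 3688 FPKM in wt and to 1399 and 1502 in cko, 7 of 8 without overlap between the groups. B cell markers summed to 55.0 and 69.1 against 34.4 and 44.8 FPKM, 6 of 6 without overlap. Hepatocyte markers summed to 60.4 and 102 against 43.0 and 52.6 FPKM. Of the 6 hepatocyte markers tested 3 were lower in cko without overlap, and the others overlapped. Over all genes tested the groups lay apart for 18.0% lower and 33.6% higher in cko. The Y-linked gene Ddx3y lay at 24.9 FPKM in wt2 and at no more than 0.00866 FPKM in the other 3 libraries, so that wt2 stood apart. Xist lay at 0.0119 FPKM in wt2 and at 4.91, 6.67 and 7.98 FPKM in wt1, cko1 and cko2. The labels do not give sex, but these genes mark wt2 as male and the other 3 libraries as female. Sex was thus not balanced between the groups. The part of these shifts, and of sex, in the snoRNA values was not tested. In such RNA fewer cells of a type and less RNA per cell cannot be told apart.

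More snoRNA genes were detected in cko than in wt. Reads were present for 101 and 114 of the 229 genes in wt1 and wt2 and for 141 and 127 in cko1 and cko2, so that the groups did not overlap. The mean difference was 26.5 genes, and 33.0 without wt2. It was in the same direction as that of all 24706 genes, of which 74.1% and 76.1% were above 0 in wt and 82.9% and 79.5% in cko. After thinning each library to the depth of the shallowest the expected numbers were 94.3, 112, 139 and 127. With at least 5 reads required, 47 and 44 genes were found in wt and 58 and 59 in cko. Introns on the host strand held most of the difference, with 50 and 57 of 109 genes above 0 in wt and 77 and 66 in cko. Of the 36 C/D genes, 21 and 20 were above 0 in wt and 24 in each cko library.

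**Figure D1:**
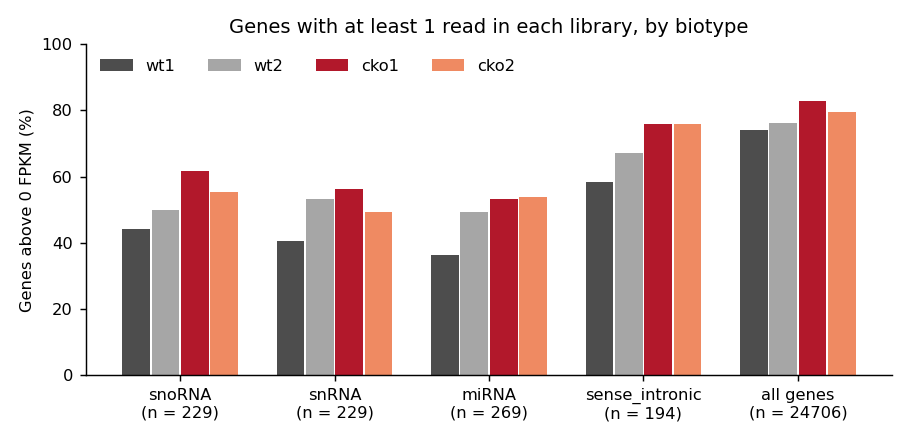
The percentage of genes above 0 FPKM is drawn per library (grey bars wt, red bars cko) for snoRNA, snRNA, miRNA and sense intronic genes and for all genes, with the number of genes under each name. For snoRNA the bars stand at 44.1% and 49.8% in wt and at 61.6% and 55.5% in cko, and the bars of all genes are also higher in both cko libraries.

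Detection was patchy from library to library. Of the 229 genes, 94 had reads in 1 library only, 60 in 2, 31 in 3 and 44 in all 4. Reads in both cko libraries and in neither wt library were found for 17 genes (7.42%), and the opposite pattern for 7 (3.06%). Over all genes these patterns made up 2.93% and 1.09%, and over the 269 miRNA genes, which are also short, 7.06% and 2.23%. The correlation of log2(FPKM + 1) over the 229 genes was 0.61 between wt1 and wt2, 0.55 between cko1 and cko2 and 0.52 to 0.58 between libraries of different groups. The 2 cko libraries were thus no more alike than a wt and a cko library were.

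Few reads stood behind most genes. All snoRNA genes together held 3461 reads over the 4 libraries, with a median of 5 reads per gene. At the median length of 130 bases, 1 read was worth 0.346 FPKM in wt1, 0.409 in wt2, 0.410 in cko1 and 0.435 in cko2. At least 10 reads over the 4 libraries were found for 77 genes, at least 50 for 14 and at least 100 for 3. The 10 leading genes held 37.5% of the reads and Gm24727 alone 13.6%. A count of 0 reads allows up to 0.135 RPM (counted reads of a gene per 1000000 counted reads of the library) in wt1 and up to 0.170 in cko2, from 3 counts.

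The summed snoRNA level was higher in both cko libraries than in both wt libraries. snoRNA genes took 34.3 RPM in wt1 (95% Clopper-Pearson interval 31.9 to 36.8), 36.1 in wt2 (33.5 to 39.0), 53.1 in cko1 (49.9 to 56.6) and 57.9 in cko2 (54.4 to 61.5), a ratio of group means of 1.58. These intervals cover counting error only. On the FPKM scale the sums were 285 and 302 in wt and 429 and 476 in cko, a log2 ratio of 0.62, and 0.67 without wt2. Without Gm24727 the log2 ratio was 0.58. The exact two-sided permutation test gave p = 0.33, the smallest that 2 against 2 libraries allow. When libraries were scaled by medians of ratios or by quantiles, which lowered the median log2 difference of all genes from 0.09 to −0.01 and −0.02, the ratio of summed FPKM fell from 1.54 to 1.42 and 1.39.

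The sums of the snoRNA classes did not all show this difference. C/D genes summed to 7.56 and 8.13 RPM in wt and to 8.06 and 8.03 in cko. All 4 libraries lay within each other's counting intervals. The FPKM ratio of 1.05 turned to 0.96 and 0.95 under the scalings by ratios and by quantiles. This sum includes 2 genes lower in cko, Gm24494 (23, 19, 14 and 1 reads in wt1, wt2, cko1 and cko2) and Snord118 (20, 15, 7 and 2). Their part in the level C/D sum was not tested. Of the 19 C/D genes tested, 11 had a log2 difference above 0 and 8 below, with a median of 0.37. H/ACA genes summed to 12.6 and 15.9 RPM in wt and to 20.97 and 26.0 in cko, a ratio of 1.65. For each C/D read there were 1.66 and 1.96 H/ACA reads in wt and 2.60 and 3.24 in cko, without overlap (exact permutation test, two-sided p = 0.33, the smallest possible). The 70 genes without a class summed to 14.1 and 12.1 RPM in wt and to 24.1 and 23.9 in cko, a ratio of 1.83. Within the H/ACA class, the 46 SNORA17 genes summed to 5.45 and 5.42 RPM in wt and to 5.98 and 6.78 in cko, a ratio of 1.17.

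**Figure D2:**
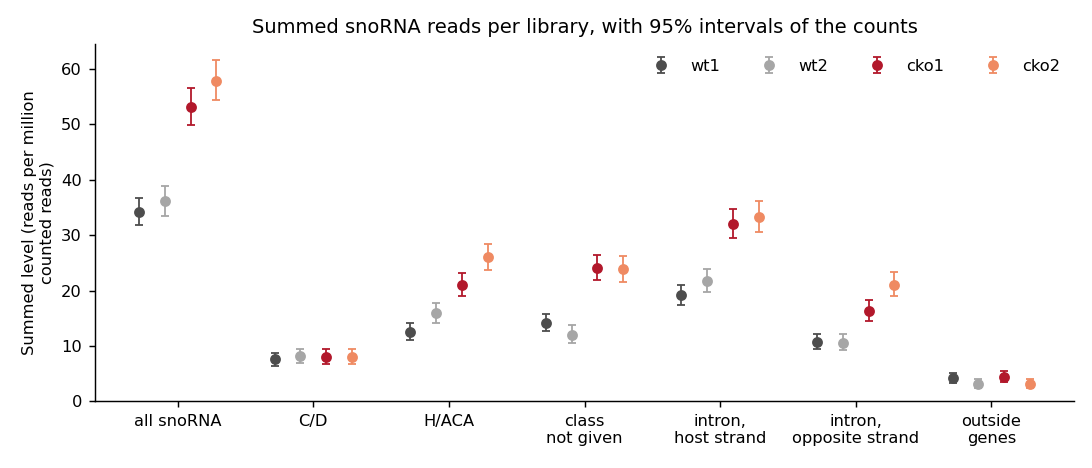
Summed RPM from recovered reads are drawn per library for all 229 snoRNA genes and by class and position, with 95% Clopper-Pearson intervals as bars. The groups lie apart for all snoRNA genes, H/ACA genes, genes without a class and both intronic sets, whereas the 4 libraries lie at 7.56 to 8.13 RPM for C/D genes and at 3.13 to 4.48 RPM outside genes.

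The sums also differed by position. Genes in introns on the host strand summed to 19.1 and 21.7 RPM in wt and to 32.0 and 33.3 in cko (ratio 1.60), and genes in introns on the opposite strand to 10.8 and 10.6 RPM in wt and to 16.3 and 21.1 in cko (ratio 1.75). Genes outside other genes summed to 4.19 and 3.13 RPM in wt and to 4.48 and 3.17 in cko, where the groups overlapped. Their FPKM ratio of 1.11 became 1.02 and 0.99 under the scalings. This sum includes Snord118 and Gm22267, the 2 genes called lower in cko. Detection did not show the same division. Outside genes, 11 and 10 of the 37 genes were above 0 in wt and 17 and 15 in cko. For each read outside genes there were 7.14 and 10.3 intronic reads in wt and 10.8 and 17.2 in cko, which lay apart by a narrow margin (exact permutation test, two-sided p = 0.33). Opposite-strand reads made 0.562 and 0.489 of the host-strand reads in wt and 0.510 and 0.633 in cko, which overlapped (p = 0.667, exact permutation test). Whether reads were counted by strand is not stated, so that reads of a snoRNA and of the unspliced host transcript, on either strand, cannot be told apart.

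Other classes of short or intronic RNA were measured in the same libraries. The 229 snRNA genes, the RNAs of the spliceosome and their copies, summed to 101, 125, 117 and 111 RPM in wt1, wt2, cko1 and cko2, a ratio of 1.01. For each snRNA read there were 0.338 and 0.289 snoRNA reads in wt and 0.454 and 0.520 in cko (exact permutation test, two-sided p = 0.33). The 269 miRNA genes summed to 45.2 and 49.99 RPM in wt and to 62.5 and 64.3 in cko (ratio 1.33). The 194 sense intronic genes are transcripts annotated within introns. Reads were recovered for 193 of them, which summed to 137 and 207 RPM in wt and to 237 and 264 in cko (ratio 1.46). The 84 genes of the mixed class misc_RNA summed to 46.5 and 42.0 RPM in wt and to 65.6 and 86.6 in cko (ratio 1.72). A higher summed level in both cko libraries was thus also found for these 3 classes.

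Gm24727 led all snoRNA genes in every library and lies in an intron of Gsr, the gene of glutathione reductase. It lay outside the naming rule, having no class, and was named after its values were seen. It was measured at 24.7 and 32.8 FPKM in wt1 and wt2 (79 and 89 reads) and at 66.7 and 47.5 FPKM in cko1 and cko2 (180 and 121 reads). Both cko libraries were higher than both wt libraries. The log2 difference was 0.96 (SE 0.23, unadjusted p = 0.007, adjusted p = 0.214), just short of the fold threshold. Gsr itself was measured at 246, 322, 398 and 333 FPKM, a log2 difference of 0.37 (SE 0.19, adjusted p = 0.380). Another listed snoRNA, Gm25291, is 93.75% identical to Gm24727. Next by reads came Gm27295, on the opposite strand of App, with 31 and 10 reads in wt and 46 and 53 in cko.

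Among H/ACA genes, Gm24119 (SNORA53 family) in Slc25a3, a mitochondrial phosphate carrier gene, held 29, 34, 25 and 29 reads in wt1, wt2, cko1 and cko2. Its libraries overlapped, with a log2 difference of −0.05 (SE 0.22) whose sign turned when wt2 or cko1 was left out. Gm23297 (SNORA54) in Nap1l4 held 11, 21, 20 and 38 reads and also overlapped. Gm25821 (SNORA21) in Cpsf3, which encodes the endonuclease of polyadenylation, held 9, 15, 18 and 34 reads, with both cko libraries above both wt libraries (log2 difference 1.08, SE 0.39, unadjusted p = 0.036). The difference was 0.69 without wt1 and 0.63 without cko2. The remaining leading H/ACA genes, Gm23722 and Gm26394, were called and are given with the calls.

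Of the 5 C/D genes with the most reads, 3 overlapped between the groups and 2, Gm24494 and Snord118, were lower in both cko libraries. Gm24989 (SNORD86), opposite to Ssh2, held 15, 24, 27 and 21 reads in wt1, wt2, cko1 and cko2. Snord7 held 14, 19, 33 and 16 reads, where cko2 lay between both wt libraries. Snord72 in the ribosomal protein gene Rpl37 held 18, 9, 7 and 14 reads, and its log2 difference of −0.17 (SE 0.38) changed sign when wt1 or cko1 was left out. Gm24494 (SNORD45) in Rabggtb held 23 and 19 reads in wt and 14 and 1 in cko. Its log2 difference of −1.71 (SE 0.79, unadjusted p = 0.078) rested on cko2 and was −0.41 without that library.

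Differences were tested for 78 snoRNA genes, those with a mean of at least 1 FPKM, within a limma fit of 10779 genes. The other 151 were under this filter, with the nearest genes on either side at 1.01 and 0.984 FPKM. A gene called had a log2 difference beyond 1 in log2(FPKM + 1) and an unadjusted p under 0.01. This rule called 13 snoRNA genes, 11 higher and 2 lower in cko, beside a background of 2.29% of all genes tested (1.88% higher and 0.408% lower). The count was 10 without wt2 and 5 without wt1. No snoRNA gene passed an adjusted p under 0.05, the smallest being 0.183, and neither did any other gene tested (background 0.00%). At an unadjusted p under 0.05 the count was 23, against a background of 16.4%.

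The share of calls was also above the background among other short genes and genes with few reads. snoRNA genes were called in 16.7% of those tested, snRNA genes in 14.1% of 71, miRNA genes in 10.3% of 87 and all genes no longer than the longest snoRNA, snoRNA genes included, in 12.7% of 322. Genes other than snoRNA with a mean under 10 reads were called in 12.5% of 248, and protein-coding genes in 1.42% of 9154. A gene of low level passes the filter through the group in which it is high, so that the tested genes are not a fair sample of the 229. Without the filter 12 of 229 were called, all higher in cko, beside a background of 0.700% (0.591% higher), and 7 of them were among the 13. In that fit 5.24% of the snoRNA genes, 4.37% of the 229 snRNA genes and 3.35% of the 269 miRNA genes were called. Of the 1028 genes no longer than the longest snoRNA, snoRNA genes included, 4.09% were called. Of the 9813 other genes with a mean under 10 reads, 0.408% were called. Those genes were not matched for length, and few reads on a longer gene give a low FPKM, where log2(FPKM + 1) understates changes. Their share therefore cannot be set against that of the snoRNA genes. With a mean of at least 10 reads required, 5 of 22 were called against 1.79%, as were 13.3% of the 83 genes no longer than the longest snoRNA. With limma's voom on the recovered reads of the same 22 genes, where counting error is weighed, 0 were called against 1.98%, and 1 had an unadjusted p under 0.05 against 14.8%. Groups lay apart for 23 genes higher and 7 lower in cko of the 78 (29.5% and 8.97%), beside 33.6% and 18.0% of all genes tested, so that separation of the groups was no more frequent among snoRNA genes.

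**Figure D3:**
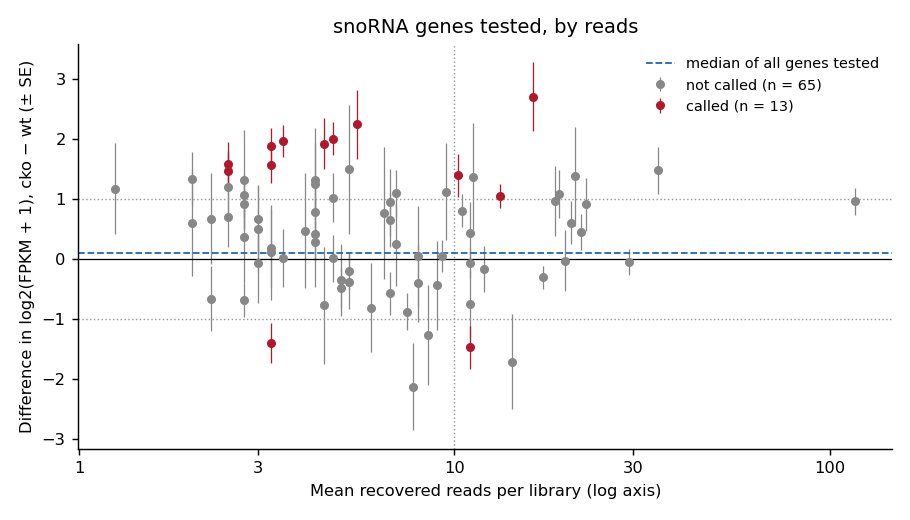
The difference in log2(FPKM + 1) between cko and wt, with its SE, is drawn against the mean recovered reads per library (log axis) for the 78 snoRNA genes tested, with called genes in red, the fold threshold and the mean of 10 reads as dotted lines, and the median of all genes tested (0.09) dashed. Of the 13 called genes, 9 lie left of 10 reads, and the gene with the most reads, Gm24727, lies just under the upper threshold.

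Of the 4 genes called with a mean of at least 10 reads, 3 were higher in cko. Gm23722 (SNORA33) lies in an intron of Rnf149, a ubiquitin ligase gene, and held 4 and 1 reads in wt and 14 and 46 in cko. Its log2 difference was 2.70 (SE 0.57, adjusted p = 0.206, limma), and cko2 was more than 3-fold above cko1. Rnf149 was measured at 4.27 and 3.78 FPKM in wt and at 7.11 and 19.6 in cko, and its 2 cko libraries stood in the same order (log2 difference 1.36, SE 0.43, adjusted p = 0.250). Gm22334 in Trpc4ap held 3 and 7 reads in wt and 19 and 12 in cko (log2 difference 1.39, SE 0.36). Gm26394 (SNORA42) lies opposite to Top2a, the gene of DNA topoisomerase II alpha, and held 8 and 9 reads in wt and 17 and 19 in cko (log2 difference 1.05, SE 0.20). Top2a was level at 65.3 and 57.5 FPKM in wt and 68.6 and 59.5 in cko. The calls of Gm22334 and Gm26394 were lost under the scalings by ratios and by quantiles, at log2 differences of 1.30 and 1.28 (Gm22334) and 0.95 and 0.94 (Gm26394), and the log2 difference of Gm23722 was 1.88 and no longer passed without cko2.

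Snord118 was the gene of this read range called lower. It encodes U8, an independently transcribed C/D snoRNA needed to process the RNA of the large ribosomal subunit, and was measured at 6.67 and 5.90 FPKM in wt (20 and 15 reads) and at 2.77 and 0.837 FPKM in cko (7 and 2 reads). The groups did not overlap, and the log2 difference was −1.47 (SE 0.36, unadjusted p = 0.0078, adjusted p = 0.214). By summed RPM the ratio of cko to wt was 0.291, with a counting interval of 0.121 to 0.613. The difference was −0.95 without cko2 and no longer passed, as it did not without either wt library, at a pseudocount of 0.1 or 0.01, without the filter or with voom. Another listed snoRNA, Gm24208, is 95.6% identical to it. Gm22267 (SNORA17), the other gene called lower, held 8 and 4 reads in wt and 1 and 0 in cko, and was no longer called without wt1 (log2 difference −1.14) or cko2 (−1.16). Both genes called lower lie outside other genes, where 5 genes were tested.

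The genes called higher with fewer reads were at or near 0 in wt. Gm25788 and Gm22154, the SNORA55 pair in Pabpc4 whose sequences differ at few bases, held 0 reads in both wt libraries, and 8 and 6 reads (Gm25788) and 5 and 8 reads (Gm22154) in cko. Set against 3 counts over the wt group, the levels in cko were 5.26-fold and 4.88-fold higher. These values leave out the counting error of the cko reads and are no lower bounds. Pabpc4, a poly(A)-binding protein gene, was measured at 3.90 and 3.44 FPKM in wt and 4.31 and 2.78 in cko, which overlapped. The SNORA55 gene Gm24620 in Kif13a, held 4 reads in cko2 alone. Gm22362 (SNORA70) in Ybx3 held 0 and 0 reads in wt and 4 and 18 in cko, 8.26-fold higher by the same reckoning. Ybx3 overlapped between groups at 4.17 to 5.48 FPKM. Gm23723 (SNORA41) in Nup210l held 0 and 1 reads in wt and 9 in each cko library. Another listed snoRNA, Snora41, is 97.7% identical to Gm23723. Gm24500, opposite to Mtdh, held 0 and 1 against 5 and 12 reads. The calls of these 5 genes were lost at a pseudocount of 0.01, where the fitted log2 differences were larger (8.19 for Gm25788, 8.06 for Gm22154 and 8.45 for Gm22362) with SEs of 2.68 to 3.03, and without cko2 the log2 difference was 1.37 for Gm22362 and 1.40 for Gm24500. The remaining 3 called higher were Gm25635 in Stxbp5, Gm22858 in Wdr43 and Gm23772 opposite to B3gnt2, named after their values were seen, with 10 to 13 reads each over the 4 libraries. By position, the 11 genes called higher were 8 of 43 tested in introns on the host strand and 3 of 29 on the opposite strand. Outside genes 0 of 5 tested were called higher, and over an exon 0 of 1. By class, they were 8 of 38 H/ACA genes tested, 1 of 19 C/D genes and 2 of 21 without a class. Gm25788, Gm22154 and Gm23723 were called whichever library was left out, whereas the other 8 were no longer called without wt1.

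**Figure D4:**
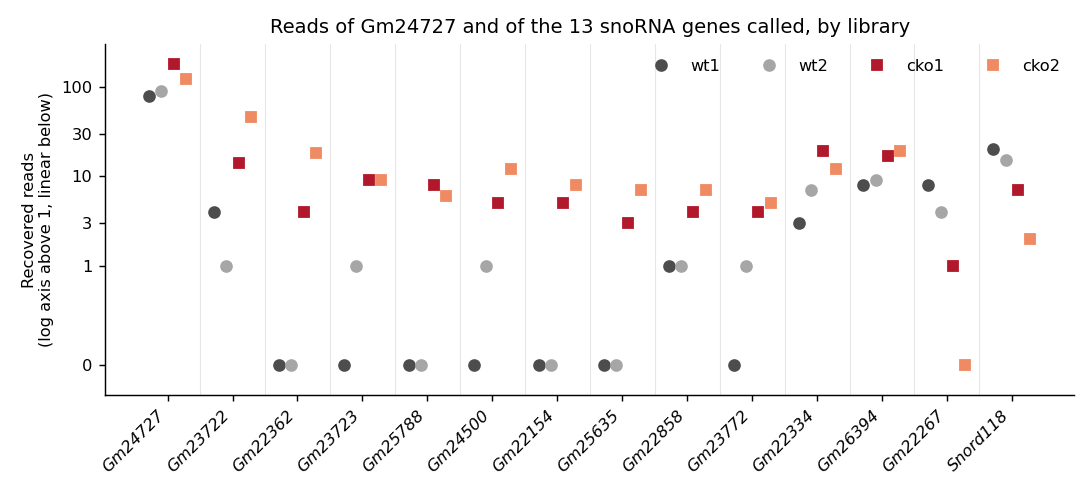
Recovered reads of Gm24727 and of the 13 called snoRNA genes are drawn per library (grey circles wt, red squares cko; log axis above 1 read, linear below), ordered by log2 difference. In 4 of the genes both wt libraries lie at 0, whereas Snord118 falls from 20 and 15 reads in wt to 7 and 2 in cko.

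Host genes were compared with the snoRNA genes within them. Of 174 hosts in the files 146 were tested, and 1 was called higher (App, the amyloid precursor protein gene, at 24.4, 24.6, 51.7 and 55.5 FPKM) and 0 lower at this threshold, beside the background of 1.88% and 0.408%. Their median log2 difference was 0.16, against 0.09 for all genes tested. For the 39 host-strand pairs in which both genes were tested, the median log2 difference was 0.66 for the snoRNA and 0.16 for the host, and both were above 0 in 19 pairs and below 0 in 6. For the 27 opposite-strand pairs the medians were 0.50 and 0.32, and both were above 0 in 18. The filter bears on these snoRNA medians, since over all 229 genes without it the median was 0.26. The rank correlation of the differences was 0.25 over the 39 and 0.29 over the 27 pairs, which share libraries, and that of mean levels was 0.18 over 107 and 0.24 over 75 pairs. Host level thus ordered the snoRNA levels weakly.

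**Figure D5:**
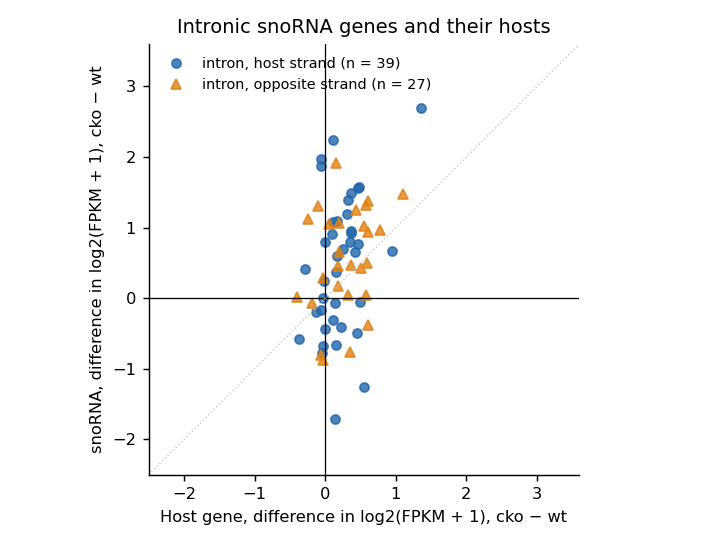
The cko minus wt difference in log2(FPKM + 1) of each tested intronic snoRNA gene is drawn against that of its host, for 39 genes on the host strand (circles) and 27 on the opposite strand (triangles), with the line of equal difference dotted. Points spread more along the snoRNA axis than along the host axis, and Rnf149 and its snoRNA Gm23722 stand at the upper right.

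The proteins of snoRNA particles did not pass the test. Of 28 genes for core proteins, assembly and trimming factors 25 were tested and 0 were called, with 3 at an unadjusted p under 0.05 and a median log2 difference of 0.07. Against a background of 2.29% called and 16.4% at an unadjusted p under 0.05, these counts do not set the proteins apart from other genes. Fbl, fibrillarin of the C/D particle, was measured at 1.96, 1.92, 2.67 and 2.89 FPKM in wt1, wt2, cko1 and cko2 (log2 difference 0.36, SE 0.20). Dkc1, dyskerin of the H/ACA particle, lay at 8.24, 6.50, 6.94 and 8.96 FPKM and overlapped between the groups. The 3 genes were Nolc1, a nucleolar chaperone of both particles, with 7.65 and 7.55 against 11.6 and 11.1 FPKM (log2 difference 0.52, SE 0.15, adjusted p = 0.230), Tcof1 (0.44, SE 0.15) and the assembly factor Nufip1 (0.61, SE 0.24).

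Long noncoding RNAs that host snoRNAs were mostly low. Of 19 looked for 16 were in the files and 4 passed the filter. Of these 0 were called, beside a background of 2.29% of all genes tested. Gas5, a host of C/D snoRNAs, lay at 2.34 and 1.99 FPKM in wt and 1.73 and 1.89 in cko (log2 difference −0.17, SE 0.22). Snhg1, under the filter, lay at 0.121 and 0.125 FPKM in wt and 0.665 and 0.781 in cko and was not tested. Of 14 other RNAs without poly(A) tails, such as RNase P RNA, 4 were in the files and 3 were tested. Rn7sk, which holds the elongation factor P-TEFb inactive, was called lower, beside a background of 0.408% lower over all genes tested. It lay at 2.04 and 3.21 FPKM in wt (15 and 20 reads) and at 0.161 and 0.342 in cko (1 and 2 reads). Its log2 difference was −1.52 (SE 0.29, adjusted p = 0.199, limma), whereas Rpph1 lay at 3.95, 4.66, 3.85 and 4.25 FPKM in wt1, wt2, cko1 and cko2.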

How the data were processed

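RNA of 4 libraries (2 wt, 2 cko) was sequenced by the authors on an Illumina platform. The authors deposited FPKM values per gene, 1 file per library. The submitters' processing notes name TopHat2 2.0.12, Bowtie2 2.2.3, HTSeq 0.6.0 and mm9, although gene positions were those of GRCm38 (92.6% identical to GENCODE M21). Strandedness, selection of poly(A) RNA and annotation release are not given in the sources used here. Whole reads were recovered from FPKM steps and gene lengths (tolerance 0.02 reads), which was 100% whole for snoRNA values, at 17691505 to 22212407 counted reads per library. Groups were taken from the labels. limma 3.58.1 (R 4.3.3; lmFit, eBayes with a trend, no covariates) was run on log2(FPKM + 1) over all genes with a mean of 1 FPKM or more, a scale that understates changes of low genes, with Benjamini-Hochberg adjustment, and was tested on simulated data. Calls used both thresholds of the study, a log2 difference beyond 1 with an unadjusted p under 0.01 (its results) and of at least 1 with an adjusted p under 0.05 (its methods). Sums were compared by exact permutation tests. Identities were computed with edlib 1.3.9.post1, and tables with Python 3.11.15. Named genes were the 5 leading C/D and 5 leading H/ACA genes by reads, called genes (up to 5 each way with a mean of at least 10 reads and 5 each way below), and genes of set hosts and lists, of which 1 host is not reported here. Lists covered snoRNA particle proteins, host RNAs, other RNAs without poly(A) tails and cell type markers. T and NK, megakaryocyte, mast cell and endothelial marker lists had 2, 2, 5 and 6 genes tested. Of these 0, 0, 0 and 1 were called, beside a background of 2.29% of all genes tested. Genes and lists were chosen with earlier results of these data known. Alternatives covered pseudocounts, filters, scalings, the trend, a replicate block, voom and leaving out each library. Thinning and scaled sums were added after the data were seen.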

Additional observations from a re-analysis of the deposited data

How the results depend on the processing

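The count of 13 snoRNA genes called was 4 at a pseudocount of 0.01, 3 at a mean of at least 5 FPKM, 5 at a mean of at least 10 reads, 0 with voom on recovered reads, 0 at an adjusted p under 0.05 and 23 at an unadjusted p under 0.05. It ranged from 5 (without wt1) to 14 when each library was left out. A pseudocount of 0.1, no filter, both scalings and no trend gave 9 to 12. With the replicate number as a block the count was 19, of which 12 were among the 13. The numbers did not pair the libraries (correlation of deviations −0.16), so that this fit is given only here. The difference in detected genes, 26.5, was 13 at 5 reads or more, 19.5 at 1 FPKM or more and 19.5 to 33.5 with each library left out. The log2 ratio of summed FPKM, 0.62, was 0.48 to 0.66 over the other settings and 0.55 to 0.70 with each library left out. Over 21 named genes, 198 of 265 repeated values kept sign and side of the threshold, 60 no longer passed, 3 newly passed and 4 changed sign. Those 4 were Gm24119 without wt2 (0.15) and without cko1 (0.079), and Snord72 without wt1 (0.17) and without cko1 (0.31). With each library left out, the log2 difference ranged from −0.25 to 0.15 for Gm24119 and from −0.64 to 0.31 for Snord72. The cause was not tested. An exact permutation test of a single value cannot fall below p = 0.33 with 2 libraries per group, and at 1 to 10 reads per library most fold differences are not resolved by these depths.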
